A study of Mus musculus with 2 samples.

Results

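The miR-29 family was described arm by arm in resting mouse macrophages. Its 7 mature miRNAs were taken by name from the 1915 names in the count table, as 3 arms from the 3p side of the hairpin (mmu-miR-29a-3p, mmu-miR-29b-3p and mmu-miR-29c-3p) and 4 from the 5p side (mmu-miR-29a-5p, mmu-miR-29b-1-5p, mmu-miR-29b-2-5p and mmu-miR-29c-5p). All 7 had counts in both libraries, and all 7 passed the minimum of 10 counts summed over the libraries that was set for testing.

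The study examined miR-21 in macrophages during atherosclerosis and sequenced small RNAs of bone marrow-derived macrophages (BMDMs) to profile the miRNAs of these cells. BMDMs are macrophages grown in culture from bone marrow progenitors. Both libraries belong to a single group of unstimulated BMDMs from wild type mice on the C57/BL6 background, 8 weeks of age, and are given as biological replicates 1 and 2. No treated or mutant cells were analysed here, so the comparisons below are between miRNAs, between the arms of a hairpin and between replicate libraries, never between conditions.

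Replicate 1 had 7322969 counts in all and replicate 2 had 8094314, over 891 and 898 names with at least 1 count. Levels are given as RPM, the count of a miRNA scaled to a common library total of 1000000 miRNA counts, with the mean and the SD over both libraries. At this depth a count of 0 leaves room for a level of at most 0.410 RPM in the first library and 0.371 RPM in the other. Intervals are 95% intervals. Like these limits they were computed from the counts of a single library and hold counting error alone. Reads copied by PCR were not traced to single molecules, so even this error may be understated. In bulk RNA, fewer cells of a type and less RNA per cell cannot be told apart.

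A miRNA hairpin can release a mature strand from each of its sides. The strand that is mostly loaded into Argonaute is called the guide and the other the passenger, and the seed near the 5′ end of the loaded strand is the main determinant of which mRNAs it pairs with. For miR-29 the 3p arm is known as the guide. Its known targets include mRNAs of collagens, elastin and fibrillin, the DNA methyltransferases Dnmt3a and Dnmt3b, and the apoptosis regulator Mcl1. The family is best known as a brake on the production of extracellular matrix in fibrosis, and in immune cells as a regulator of interferon gamma responses. Its genes lie in a pair of clusters, each of which is transcribed as a shared primary transcript.

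The 7 mature sequences are shown because guide and passenger arms differ in how alike they are between genes. They were taken from RefSeq (GRCm38.p6) and are written 5′ to 3′, with the seed, bases 2 to 8, in capitals.
mmu-miR-29a-3p: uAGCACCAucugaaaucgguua
mmu-miR-29b-3p: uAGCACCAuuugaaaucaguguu
mmu-miR-29c-3p: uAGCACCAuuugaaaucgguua
mmu-miR-29a-5p: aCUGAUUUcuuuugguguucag
mmu-miR-29b-1-5p: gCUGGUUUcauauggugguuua
mmu-miR-29b-2-5p: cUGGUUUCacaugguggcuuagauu
mmu-miR-29c-5p: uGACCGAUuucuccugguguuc

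The 3 guide arms carried 1 seed between them, while the 4 passenger arms carried 4 different seeds. Counting positions from 1 at the 5′ end of the miRNA named first, mmu-miR-29a-3p and mmu-miR-29c-3p differed by C10U and were identical at 21 of 22 bases. The guide mmu-miR-29b-3p has 23 bases, against 22 in each of the others. Over the 22 aligned bases, the changes from mmu-miR-29c-3p to mmu-miR-29b-3p were G18A, U21G and A22U. From mmu-miR-29a-3p to mmu-miR-29b-3p they were these and C10U. The 3 guides therefore shared their first 9 bases and separated towards the 3′ end. The sources used here do not give the mismatches allowed in mapping or the rule for reads with several matches, so the split of counts between mmu-miR-29a-3p and mmu-miR-29c-3p is uncertain to the extent that reads could be assigned to either.

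The ending of miR-29b-3p is known as an element linked to its nuclear localization. The motif AGUGUU began at position 18 of the 23 bases of mmu-miR-29b-3p and was in 1 of the 7 members. It was found in 12 of 1679 mouse mature miRNA names of the reference, or 0.715%, and 2 of these end in it. Among the passenger arms, the longest stretch in common was CUGGUUUCA, 9 bases shared by mmu-miR-29b-1-5p from position 2 and mmu-miR-29b-2-5p from position 1. This offset of the 5′ end is what gave these related arms different seeds. The arms mmu-miR-29a-5p and mmu-miR-29c-5p shared the 8 bases UGGUGUUC.

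The 4 hairpin genes lie in 2 clusters (GRCm38). Mir29a (chr6:31062660-31062747) and Mir29b-1 (chr6:31063023-31063093) lie on the minus strand with 275 bases between them, and their mature arms include mmu-miR-29a-3p at chr6:31062673-31062694 and mmu-miR-29a-5p at chr6:31062711-31062732. Mir29b-2 (chr1:195037040-195037120) and Mir29c (chr1:195037547-195037634) lie on the plus strand with 426 bases between them, and give mmu-miR-29c-3p at chr1:195037600-195037621 and mmu-miR-29c-5p at chr1:195037562-195037583. In the GENCODE annotation, Mir29b-2 and Mir29c are inside exon 3 of the noncoding gene A330023F24Rik on the same strand. They also lie opposite the UTR in exon 11 of a Cd46 transcript. Mir29a overlapped no other annotated gene, and Mir29b-1 overlapped exon 1 of the lincRNA Gm27019 by 2 bases on the same strand. Mature miR-29b-3p is made by both Mir29b-1 and Mir29b-2, so its counts cannot be assigned to a cluster, whereas each passenger arm belongs to a single gene.

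The label of the cells was checked against miRNAs known to mark cell types. The 5 myeloid markers had summed levels of 49602 and 37791 RPM in replicates 1 and 2, led by mmu-miR-142a-5p, and all 5 had counts in both libraries. Fibroblast and stromal markers, the ones that bear most on a family known from matrix-producing cells, summed to 239 and 161 RPM over 5 names, led by mmu-miR-143-3p. The 6 epithelial markers summed to 171 and 185 RPM, led by mmu-miR-200b-3p, and the 2 endothelial markers to 62.5 and 46.2 RPM, led by mmu-miR-126a-5p. The lymphocyte marker mmu-miR-150-5p was at 27.6 and 10.9 RPM. The 2 erythroid markers, led by mmu-miR-451a, summed to 1.23 and 0.988 RPM. Of the 3 muscle markers, mmu-miR-1a-3p and mmu-miR-206-3p were at 0 in both libraries and mmu-miR-133a-3p was at 0 and 0.741 RPM. The summed myeloid level was thus above that of every other list in both libraries. Most of it was mmu-miR-142a-5p, which other blood cells also express, and the myeloid marker mmu-miR-511-5p, at 65.4 and 77.1 RPM, was below mmu-miR-143-3p, at 187 and 117 RPM.

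The guide mmu-miR-29a-3p was by far the most abundant member. It had 33971 counts (4639 RPM) in replicate 1 and 34136 counts (4217 RPM) in replicate 2, a mean of 4428 ± 298 RPM (SD, n = 2), and ranked 27 and 29 among all names. The guide mmu-miR-29c-3p had 3003 counts (410 RPM) and 3106 counts (384 RPM), a mean of 397 ± 18.6 RPM. The guide mmu-miR-29b-3p had 2966 counts (405 RPM) and 2266 counts (280 RPM), a mean of 342 ± 88.4 RPM. With the counts as deposited, the mean levels of mmu-miR-29c-3p and mmu-miR-29b-3p differed by less than the SD of the latter. They were closer in replicate 1 (410 and 405 RPM) than in replicate 2 (384 and 280 RPM). In each library, mmu-miR-29a-3p was above both.

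All passenger arms were below all guides in both libraries. The highest was mmu-miR-29a-5p, with 424 counts (57.9 RPM) in replicate 1 and 235 counts (29.03 RPM) in replicate 2, a mean of 43.5 ± 20.4 RPM. The next, mmu-miR-29c-5p, had 167 counts (22.8 RPM) and 152 counts (18.8 RPM), a mean of 20.8 ± 2.85 RPM. The miR-29b passengers were near the bottom of what this depth counts well: mmu-miR-29b-1-5p had 52 and 37 counts (7.10 and 4.57 RPM) and mmu-miR-29b-2-5p 32 and 38 counts (4.37 and 4.69 RPM). These last arms had overlapping counting intervals in both libraries. Their order changed between the libraries.

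**Figure D1:**
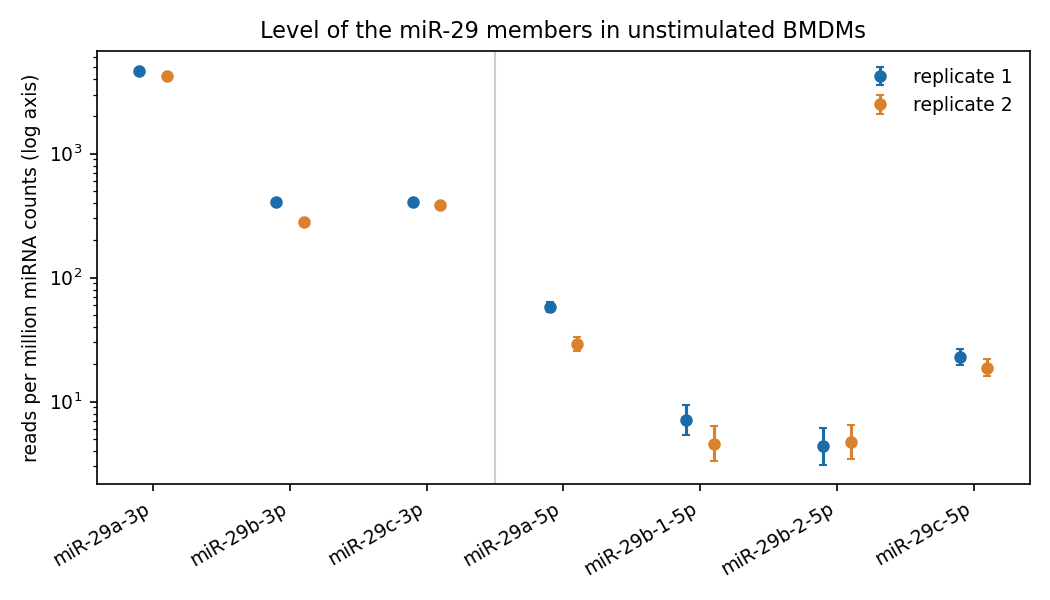
Level of each miR-29 member in RPM (log axis) in replicate 1 and replicate 2, with 95% Wilson intervals as bars and the 3p arms left of the vertical line. The 3p arms lie between 280 and 4639 RPM, above all 5p arms, which lie between 4.37 and 57.9 RPM.

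Together the 7 members made up 5546 RPM in replicate 1 and 4938 RPM in replicate 2, or 0.524% ± 0.0430 of all miRNA counts (SD, n = 2). The guides held 98.3% and 98.8% of these counts. Within the guides, mmu-miR-29a-3p held 85.1% of the counts in replicate 1 (Wilson interval 84.7 to 85.4%) and 86.4% in replicate 2 (86.1 to 86.7%), a mean of 85.7% ± 0.953. The share of mmu-miR-29c-3p was 7.52% and 7.86%, a mean of 7.69% ± 0.242, and that of mmu-miR-29b-3p was 7.43% and 5.74%, a mean of 6.58% ± 1.20. If each mmu-miR-29b-3p read had been counted for both of its hairpins, which was not resolved, halving its count would give it a mean guide share of 3.40%. With the counts as deposited, the intervals of mmu-miR-29b-3p did not overlap between the libraries (7.17 to 7.69% and 5.51 to 5.97%). Guide composition was thus dominated by miR-29a in both libraries, and the share that differed most between them relative to its size was that of miR-29b.

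The passengers were divided more evenly. Of the 675 passenger counts in replicate 1 and 462 in replicate 2, mmu-miR-29a-5p held 62.8% and 50.9% (56.8% ± 8.45) and mmu-miR-29c-5p held 24.7% and 32.9% (28.8% ± 5.77). The share of mmu-miR-29b-1-5p was 7.70% and 8.01%, and that of mmu-miR-29b-2-5p was 4.74% and 8.23%. The miR-29a arm led on both sides of the hairpin, with a smaller lead among passengers.

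**Figure D2:**
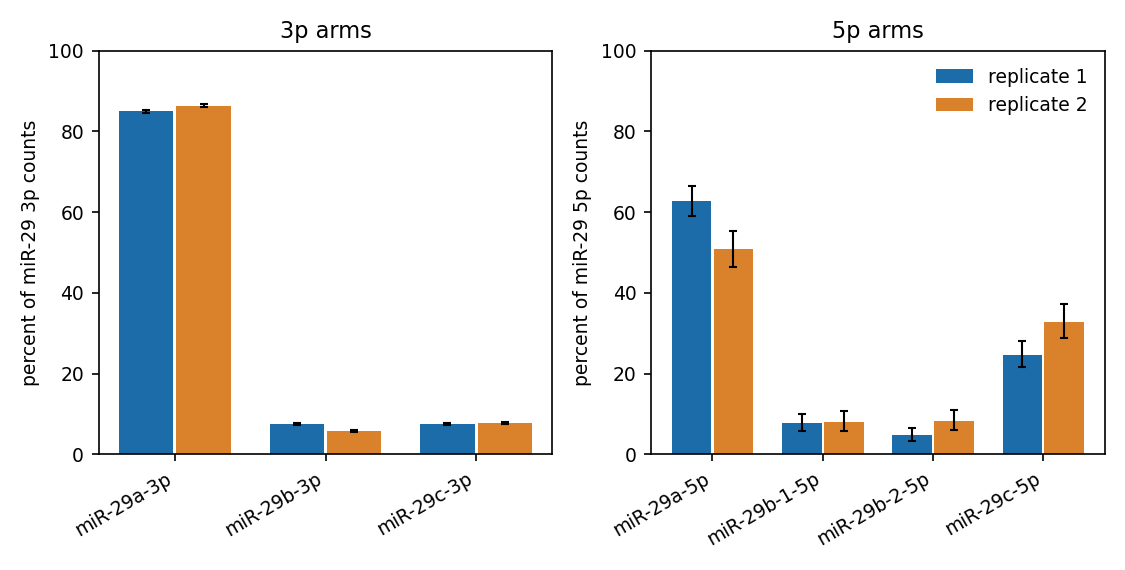
Share of each member among the miR-29 3p counts (left) and among the miR-29 5p counts (right), in percent, for each library, with 95% Wilson intervals as bars. The 3p counts are mostly mmu-miR-29a-3p (85.1% and 86.4%), and mmu-miR-29a-5p holds 62.8% and 50.9% of the 5p counts.

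Ratios between members were computed within a library, where library scaling cancels, as 11 ratios with exact Clopper-Pearson intervals. There were 11.3 counts of mmu-miR-29a-3p for each count of mmu-miR-29c-3p in replicate 1 (10.9 to 11.7) and 11.0 in replicate 2 (10.6 to 11.4). Against mmu-miR-29b-3p the ratio was 11.5 (11.0 to 11.9) and 15.1 (14.4 to 15.7). The intervals of the ratio to miR-29c thus overlapped between the libraries, and those of the ratio to miR-29b did not. For mmu-miR-29c-3p over mmu-miR-29b-3p it was 1.01 in replicate 1 (0.962 to 1.07, exact two-sided binomial test, p = 0.641) and 1.37 in replicate 2 (1.30 to 1.45), so with the counts as deposited these guides were not separable in replicate 1 and were in replicate 2. With the count of mmu-miR-29b-3p halved, a setting chosen for this ratio after seeing the data, it would be 2.02 (1.90 to 2.16) and 2.74 (2.56 to 2.94), and mmu-miR-29c-3p would be the higher guide in both libraries.

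Cluster partners could be compared gene by gene only through their passengers. In the chromosome 6 cluster, mmu-miR-29a-5p exceeded mmu-miR-29b-1-5p by 8.15 times in replicate 1 (6.10 to 11.1) and 6.35 times in replicate 2 (4.48 to 9.24). In the chromosome 1 cluster, mmu-miR-29c-5p exceeded mmu-miR-29b-2-5p by 5.22 times (3.56 to 7.88) and 4.0 times (2.79 to 5.87). In each cluster the arm of the miR-29b gene was the rarer partner, in both libraries. The miR-29b arms themselves stood at 1.63 counts of mmu-miR-29b-1-5p for each of mmu-miR-29b-2-5p in replicate 1 (1.03 to 2.61, exact binomial test, p = 0.0375, not adjusted over the 11 ratios) and at 0.974 in replicate 2 (0.602 to 1.57, exact binomial test, p = 1), so no order of these genes held in both libraries.

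The passengers of the chromosome 6 cluster outnumbered those of the chromosome 1 cluster by 2.39 times in replicate 1 (2.02 to 2.84) and 1.43 times in replicate 2 (1.19 to 1.73). The ratio of mmu-miR-29a-5p to mmu-miR-29c-5p was 2.54 (2.12 to 3.06) and 1.55 (1.26 to 1.91), against 11.3 and 11.0 for the guides of the same genes. The lead of miR-29a over miR-29c was therefore several times larger on the guide side in both libraries, and the intervals of guide and passenger ratios did not overlap. Ligation and PCR favour some sequences over others, so ratios of counts between miRNAs are not ratios of molecules.

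Arm use is the share of 3p counts among the counts of both arms of a hairpin, with the counts of both miR-29b hairpins summed. For miR-29a the 3p share was 98.8% in replicate 1 (Wilson interval 98.6 to 98.9%) and 99.3% in replicate 2 (99.2 to 99.4%), a mean of 99.0% ± 0.388. For miR-29b it was 97.2% (96.6 to 97.8%) and 96.8% (96.0 to 97.4%), a mean of 97.0% ± 0.318. For miR-29c it was 94.7% (93.9 to 95.5%) and 95.3% (94.6 to 96.0%), a mean of 95.03% ± 0.426. The order miR-29a, miR-29b, miR-29c held in both libraries, with counting intervals that did not overlap in replicate 1. In replicate 2 those of miR-29b and miR-29c met at 96.0%. With the count of mmu-miR-29b-3p halved, the mean for miR-29b would be 94.2%, below miR-29c.

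Expressed per passenger count, there were 80.1 guide counts for miR-29a in replicate 1 (72.8 to 88.4) and 145 in replicate 2 (128 to 166). For miR-29c there were 18.0 and 20.4, and for miR-29b 35.3 and 30.2. The miR-29a ratio thus differed most between the libraries: its passenger count was 424 in replicate 1 and 235 in replicate 2 while its guide counts were nearly equal.

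Arm use was compared between the libraries by Fisher's exact test over 199 hairpins or hairpin sets with at least 100 counts. Benjamini-Hochberg adjustment was over all of them. These p-values treat reads as independent, so they measure counting error and not the spread between cultures. Of the 3 miR-29 sets 1 was called, against 34.2% of all hairpins (68 of 199), so the family's count was near the background. The set called was miR-29a (a 3p share higher by 0.549 points in replicate 2, Fisher's exact test, adjusted p = 1.59e-12). A shift at least as large in points was seen in 116 of the 199 hairpins. For miR-29b and miR-29c, with fewer counts, the 3p share moved by -0.450 and 0.603 points. Their adjusted p was 0.611 and 0.501 by the same exact test. Library scaling does not enter these shares. Whether miR-29a differed from miR-29b or miR-29c in its shift was not tested.

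Set among the other hairpins, the 3p arm was the more abundant arm in 87 of 199 (43.7%), as in all 3 miR-29 sets. The rarer arm took a median of 2.68% of a hairpin's counts, with quartiles of 0.507% and 14.7%. The miR-29a passenger, at a mean of 0.958%, was above the rarer arm of 67 hairpins (33.7%), that of miR-29b, at 2.98%, above 104 (52.3%), and that of miR-29c, at 4.97%, above 116 (58.3%). Arm use of the family was therefore in the middle of the range, with every miR-29 set inside the quartiles. Guides often begin with U, a base that Argonaute is known to favour: among 131 hairpins with sequences for both arms, the more abundant arm began with U in 67 (51.1%) and the rarer arm in 23 (17.6%). All 3 miR-29 guides began with U, and of the passengers mmu-miR-29c-5p did.

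**Figure D3:**
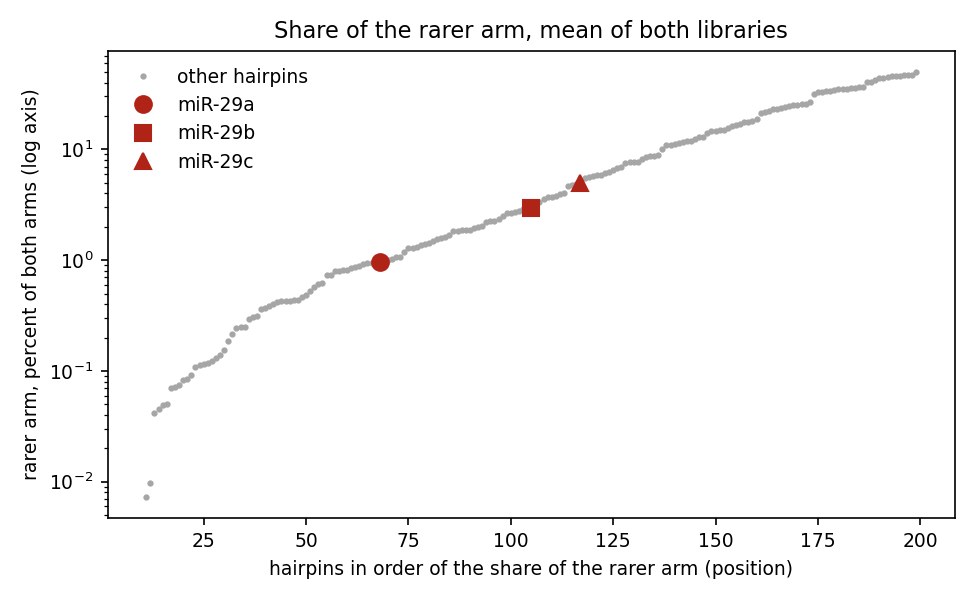
Share of the rarer arm among the counts of both arms (percent, mean of both libraries, log axis) for hairpins in order of that share. The miR-29a, miR-29b and miR-29c sets stand at 0.958%, 2.98% and 4.97%, near the middle of 199 hairpins, of which 10 with no counts of the rarer arm are not drawn.

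Levels in the replicate libraries were compared by Fisher's exact test over the 588 names with at least 10 counts, with Benjamini-Hochberg adjustment over all of them. This test compares the libraries and not conditions, and its p-values treat reads as independent, so they measure counting error and not the spread between cultures. Of the 7 members 4 were called, all lower in replicate 2, against 44.2% of names called in either direction and 30.4% called lower. With library totals 81 names were called higher in replicate 2 and 179 lower. With TMM scaling the split was 122 and 137, and with DESeq2 size factors 124 and 127. The median log2 ratio of replicate 2 over replicate 1 over all 588 names moved from -0.16 with library totals to -0.03 with TMM and -0.02 with DESeq2, and the surplus of lower calls was smaller with those scalings. For the 7 members the medians were -0.28, -0.15 and -0.14.

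The largest difference was that of mmu-miR-29a-5p, at 57.9 and 29.03 RPM, with a log2 ratio of -0.996 ± 0.12 (counting SE, Fisher's exact test, adjusted p = 2.88e-17). It was -0.87 with TMM and -0.85 with DESeq2. The guide mmu-miR-29b-3p, at 405 and 280 RPM, had a log2 ratio of -0.53 ± 0.04 (adjusted p = 2.55e-39, Fisher's exact test), or -0.40 with TMM and -0.39 with DESeq2. These were the members called under all 3 scalings, as 2 of 7 with TMM, where 44.0% of names were called, and 2 of 7 with DESeq2, where 42.7% were.

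The calls of the remaining guides rested on the scaling. For mmu-miR-29a-3p the log2 ratio was -0.14 ± 0.01 with library totals (Fisher's exact test, adjusted p = 1.35e-34), -0.01 with TMM and 0.01 with DESeq2, a change of sign. For mmu-miR-29c-3p it was -0.10 ± 0.04 with library totals (Fisher's exact test, adjusted p = 0.0234), 0.03 with TMM and 0.05 with DESeq2, again a change of sign. Neither was called under the other scalings, and no direction can be given for them. The other passengers were not called: the log2 ratio was -0.28 for mmu-miR-29c-5p (Fisher's exact test, adjusted p = 0.178), -0.64 for mmu-miR-29b-1-5p (0.0917) and 0.10 for mmu-miR-29b-2-5p (0.915).

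Among 146 names with a mean count from 100 to 1000, the absolute log2 ratio with library totals had a median of 0.36 and a 90th percentile of 0.97, and 14 names, mmu-miR-29a-5p included, had a ratio at least as large as that of mmu-miR-29a-5p. Among 86 names with a mean count from 1000 to 10000, where mmu-miR-29b-3p lies, the median was 0.30 and the 90th percentile 0.66. The difference of mmu-miR-29a-5p was thus beyond the 90th percentile of names of like count, and that of mmu-miR-29b-3p was between the median and the 90th percentile. Some names in the marker lists were called as well, beside 44.2% of all names called and 30.4% called lower with library totals. With TMM 122 of the 588 names were called higher and 137 lower, and with DESeq2 124 and 127. Of the 5 myeloid markers 1 was called higher in replicate 2 and 4 lower, and of the 5 fibroblast and stromal markers 0 were called higher and 2 lower, with the same counts under all 3 scalings. The lymphocyte marker mmu-miR-150-5p and 1 of the 2 endothelial markers were called lower under all 3 scalings. Of the 5 epithelial markers tested, 1 was called higher and 2 lower, or 1 and 1 with TMM and with DESeq2, and the erythroid marker tested was not called. The part of these markers in the miR-29 differences was not tested.

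**Figure D4:**
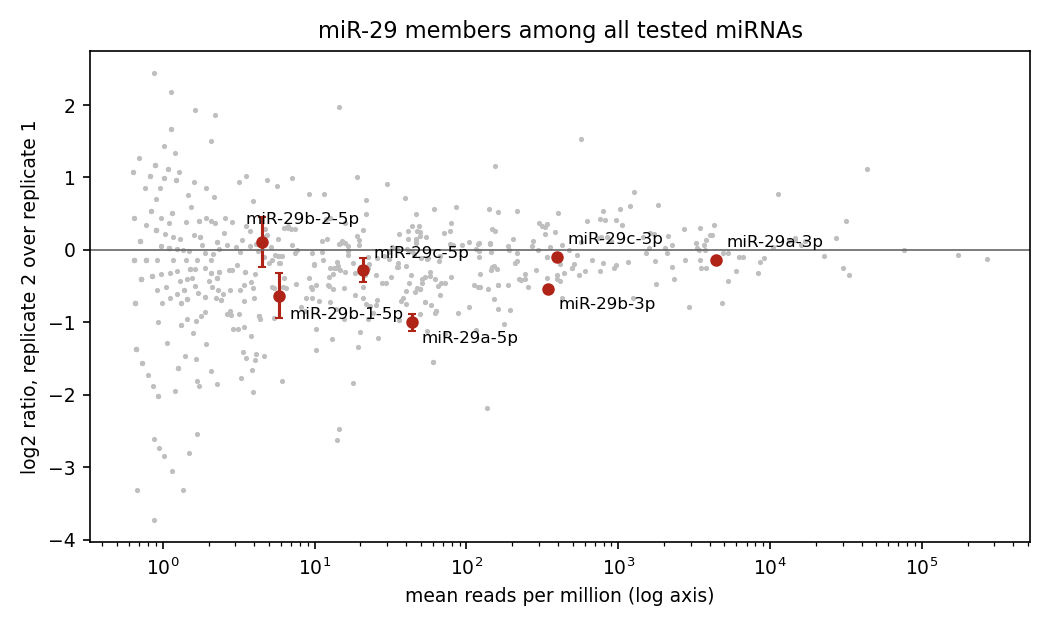
Log2 ratio of replicate 2 over replicate 1 with library totals against the mean level in RPM (log axis) for 588 tested names (grey) and the miR-29 members (red, bars are the counting SE). mmu-miR-29a-5p (-0.996) and mmu-miR-29b-3p (-0.53) are the members called under every scaling, and mmu-miR-29a-3p (-0.14) and mmu-miR-29c-3p (-0.10) change sign with DESeq2 size factors, the latter also with TMM.

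Mature sequences were found for 1623 of the 1915 names, which held 94.2% of the counts in replicate 1 and 93.4% in replicate 2. Summed by seed, AGCACCA held 5454 RPM in replicate 1 and 4881 RPM in replicate 2, or 0.517% ± 0.0405 of all counts, and ranked 21 among the 720 seeds with counts. Its neighbours were the seed of mmu-miR-223-3p, a myeloid miRNA, at 6053 and 4485 RPM, and that of mmu-miR-142a-3p, a miRNA of blood cells, at 6009 and 3626 RPM. The miR-29 seed lay below both in replicate 1 and above both in replicate 2, so the order of these neighbours was not stable. Of the 292 names without a sequence, 2 were above the summed miR-29 guides, and the rank holds for the matched names. Among the matched names, the 3 guides were the carriers of this seed. Of the passenger seeds, UGGUUUC of mmu-miR-29b-2-5p was shared with mmu-miR-6338, which had 0 counts in both libraries, and the other passenger seeds were each carried by a single matched name.

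For each member, the names closest in level were found by the Euclidean distance of log2(RPM + 1) over both libraries. Closest to mmu-miR-29a-3p were mmu-let-7g-5p (4965 and 4818 RPM) and mmu-miR-125a-5p (3858 and 4430 RPM). The guide mmu-miR-29b-3p was closest to mmu-miR-1198-5p (383 and 293 RPM) and mmu-miR-872-5p, and mmu-miR-29c-3p to mmu-miR-106b-5p (440 and 385 RPM) and mmu-miR-34c-5p. Among passengers, mmu-miR-29a-5p was closest to mmu-miR-16-1-3p (50.3 and 29.9 RPM) and mmu-miR-3473d, and mmu-miR-29c-5p to mmu-miR-10a-3p (23.9 and 18.8 RPM) and mmu-miR-7688-5p. The names closest to mmu-miR-29b-1-5p were mmu-miR-34b-3p and mmu-miR-20a-3p, and those closest to mmu-miR-29b-2-5p were mmu-miR-486a-3p and mmu-miR-449a-5p. With 2 libraries, closeness says only that the levels were alike.

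Of 16 other miRNAs linked to fibrosis and extracellular matrix, 3 were above mmu-miR-29a-3p: mmu-miR-21a-5p, known as a profibrotic miRNA (279747 and 257096 RPM), mmu-miR-26a-5p (13634 and 15350 RPM) and mmu-miR-378a-3p (12822 and 13940 RPM). The other 13 were below it, among them mmu-let-7d-5p (2899 and 2629 RPM), mmu-miR-30c-5p (3137 and 3343 RPM) and mmu-miR-155-5p (99.0 and 44.4 RPM). mmu-miR-1a-3p was at 0 in both libraries. Of the 14 tested, 7 were called higher in replicate 2 and 5 lower with library totals, where 44.2% of all names were called (81 of 588 higher and 179 lower). With TMM and with DESeq2 the split was 9 and 2. Over all 588 names it was 122 and 137 with TMM, and 124 and 127 with DESeq2. Under these scalings mmu-miR-21a-5p, mmu-let-7d-5p and mmu-miR-200c-3p were no longer among the lower names of the list. The median log2 ratio of the list was 0.11 with library totals, against -0.28 over the miR-29 members and -0.16 over all names tested. With TMM these medians were 0.24, -0.15 and -0.03, and with DESeq2 0.25, -0.14 and -0.02. The guide mmu-miR-29a-3p was thus among the more abundant miRNAs of this list, and mmu-miR-29b-3p and mmu-miR-29c-3p lay between mmu-miR-155-5p and mmu-miR-30a-5p (647 and 869 RPM) in both libraries.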

How the data were processed

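Small RNA libraries of unstimulated BMDMs were prepared by the authors with an Illumina kit after rRNA depletion. After trimming, the authors aligned reads to mouse hairpins of miRBase with Bowtie and deposited raw counts per mature name, not normalized. The release, the mismatches allowed and the rule for reads with several matches are not given in the sources used here, and can move counts between near-identical arms. The submitters' processing notes also list DESeq2.

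Totals were 7322969 and 8094314 counts. Shares, RPM, Wilson and Clopper-Pearson intervals and Fisher's exact tests (two-sided, Benjamini-Hochberg over the whole table, threshold 0.05) were computed with scipy 1.17.1. Alternatives used edgeR 4.0.16 (TMM) and DESeq2 1.42.0 in R 4.3.3. Sequences came from RefSeq (GRCm38.p6), and annotation from GENCODE. With a single group no quasi-likelihood test was possible.

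The tests were tested on simulated counts. With library totals, a change in abundant names also moves the shares of unchanged names, and such names were then called in the simulation. Calls of level for members and lists are therefore given under 3 scalings.

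Members and lists were chosen with earlier results of these data known. The names given were the 7 members, the 2 names closest in level to each, names sharing a member's seed, and the lists of fibrosis miRNAs and cell type markers.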

Additional observations from a re-analysis of the deposited data

How the results depend on the processing

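The direction of 2 guides depended on scaling. The log2 ratio of mmu-miR-29a-3p turned to 0.00699 with DESeq2 size factors, and that of mmu-miR-29c-3p to 0.0337 with TMM and 0.0487 with DESeq2. The calls of mmu-miR-29a-5p and mmu-miR-29b-3p held under both scalings, without a filter and with at least 100 counts. Halving the count of mmu-miR-29b-3p, as if each read had been counted once per hairpin, gave guide shares of 88.6% for miR-29a, 3.40% for miR-29b and 7.95% for miR-29c, and a 3p share of 94.2% for miR-29b, below that of miR-29c. Of 52 counts of at least 20 among 46 names made from 2 hairpins, 26 were odd, so these reads were not all counted as pairs. Both counts of mmu-miR-29b-3p were even, and for it this was not resolved. Pooled values of guide composition, arm use, cluster partners and the share of the miR-29 seed lie between those of the 2 libraries. Pooling thus could not move them by 1 SD, and it left the rank of the seed at 21. Thinning to an equal total, run for guide composition, left the shares within 1 SD. A seed of bases 2 to 7, run for the seed share, left that share within 1 SD. With a minimum of 1000 counts for arm use, 63 of 132 hairpins were called (47.7%), and with 20 counts 65 of 277 (23.5%), in place of 68 of 199 (34.2%), so the background share depends on the minimum. The call of miR-29a and the lack of one for miR-29b and miR-29c were the same at each. Leaving mmu-miR-21a-5p out of the totals moved the mean of 6 members by more than 1 SD, such as mmu-miR-29a-3p from 4428 to 6059 RPM and mmu-miR-29c-3p from 397 to 543 RPM, since the total is then smaller. With 2 libraries, leaving 1 out cannot move a mean by 1 SD, so the value in each library is the better guide. No paired analysis was possible because both libraries come from the same group.

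An SD over 2 libraries is itself imprecise. For the miR-29b passengers, with 32 to 52 counts, depth is a limit, and a difference between them was not resolved in both libraries. A further library was not analysed here.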
